A study of Homo sapiens with 14 samples.

Results

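Chaperone genes of the cytosol and mitochondria were followed in Jurkat cells, a human line of T-cell acute lymphoblastic leukaemia, under chemical or genetic interference with *KSR2*, a scaffold that assembles RAF with its substrate MEK. The set held 40 genes, found by symbol among the 61541 gene identifiers of the deposited count table. It comprised the heat shock transcription factors *HSF1* and *HSF2* (2 genes), 6 members of the HSP70 family, 2 of the HSP110 family, 3 of the HSP90 family, the mitochondrial chaperonin pair *HSPD1* and *HSPE1*, the 8 subunit genes of the cytosolic chaperonin CCT, the small heat shock protein gene *HSPB1* (1 gene), 6 J-protein genes, 6 co-chaperones of HSP90 and 4 of HSP70. Products of *HSPA9*, *TRAP1*, *HSPD1*, *HSPE1* and *GRPEL1* act in mitochondria, and the others act mainly in the cytosol or nucleus. Each gene had 1 row, and 39 passed the filter on low counts. *HSPA1A* was the exception.

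Polyadenylated RNA of 14 libraries in 5 groups was sequenced. Jurkat cells with *KSR2* guide 1 (n = 3) and with *KSR2* guide 2 (n = 3) had cells with a non-targeting guide as their control (NT, n = 2), and cells given APS-2-79 (KSRi, n = 3) had cells given DMSO as theirs (DMSO, n = 3). The labels call the guide groups a CRISPR knockout in the titles, CRISPRi in the design text and, in the control's library names, shRNA, so only the words guide 1, guide 2 and NT are used here. APS-2-79 is a compound that stabilises an inactive state of KSR proteins. Its dose and time and the guide sequences were not found in the labels. Separate cultures are not named for the replicates either, so p-values reflect the spread of these libraries, possibly a technical one. Library totals were 33919545 to 38801454 counts for guide 1, 29979565 to 42717502 for guide 2, 25794010 to 34535929 for NT, 21710466 to 45897075 for KSRi and 27099107 to 43027877 for DMSO. *KSR2* itself averaged 0.541 ± 0.110 CPM (counts scaled to a library total of 1000000, SD, n = 3) with guide 1 and 0.766 ± 0.0492 CPM (n = 3) with guide 2, against 29.5 ± 0.786 CPM (n = 2) in NT. All 10 T cell markers examined were expressed, and of 12 markers of B, myeloid, erythroid and epithelial cells 4 (*CSF1R*, *HBB*, *ALAS2* and *EPCAM*) had 0 counts in every library. The B cell marker *CD79A* was expressed, at 21.8 to 67.9 CPM. Without *CD79A* the markers of other cell types summed to 0.434 to 0.899 CPM per library.

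Chaperones bind unfolded or partly folded proteins and let them fold, refold or reach their partners. HSP70 proteins work in ATP-driven cycles set by J-proteins, which deliver clients, and by nucleotide exchange factors such as the HSP110 and BAG proteins, and hand many clients on to HSP90. HSP90 and its co-chaperones hold signalling proteins, RAF kinases among them, in a competent state; the related scaffold KSR1 has been found in complexes with HSP90 and *CDC37*. The ring of CCT folds actin and tubulin and the HSP60 ring with its HSP10 lid folds imported mitochondrial proteins. *HSF1* is the main activator of the heat shock genes and binds heat shock elements, repeats of the unit GAA and its reverse complement TTC at a fixed spacing. Leukaemia cells commonly express HSP90 and HSP70 genes at high levels.

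To show which members carry such repeats, promoter windows from RefSeq (GRCh38.p14, 250 bases before to 50 bases after each start) were searched on both strands. Windows were found for 34 of the 40 genes, and none for *HSF1*, *HSPA14*, *CCT6A*, *FKBP4*, *ST13* and *GRPEL1*. An element of 3 units (GAANNTTCNNGAA or its reverse complement TTCNNGAANNTTC) was present in 8 of these 34 genes (23.5%), against 0.608% of the 27305 genes with a window. The 8 genes were *CHORDC1*, *DNAJA1*, *DNAJB6*, *HSP90AA1*, *HSP90AB1*, *HSPA6*, *HSPA8* and *HSPD1*. Elements of 2 units (GAANNTTC or TTCNNGAA, which lie inside every 3-unit match) were present in 18 of the 34 genes (52.9%), against 16.2% of all genes. The E-box CACGTG was in 4 of the 34 genes (11.8%), against 8.77% of all genes. These are matches of letters, not shown binding sites, and a gene without a match in 300 bases may have one elsewhere. The set was drawn up from *HSF1* targets and heat shock families, so its share of heat shock elements is tied to that choice.

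Windows of 6 members are printed to show members with and without a match. *HSP90AA1* and *HSPD1* each had another window, at chr14:102139700-102139999 and chr2:197500225-197500524. Those windows held no heat shock element of either length and are not printed. Whether a change depends on a window was not tested. *CHORDC1*, *HSP90AA1*, *HSPA8* and *HSPD1* are members with a 3-unit element that were lower with the inhibitor. *DNAJC2* had the largest change in that comparison and no match in its window, and *HSPB1*, the single member that was higher, had a 2-unit match alone. Capitals mark all matches of either length, and each window runs 5′ to 3′ on the strand of its gene. By GENCODE on GRCh38, *CHORDC1* spans chromosome 11 from 90201160 to 90223364, *HSP90AA1* chromosome 14 from 102080738 to 102139699, *HSPA8* chromosome 11 from 123057489 to 123063230, *HSPD1* chromosome 2 from 197486581 to 197516737, *DNAJC2* chromosome 7 from 103312474 to 103344873 and *HSPB1* chromosome 7 from 76302544 to 76304295. The windows cover a promoter and the first transcribed bases, and lie at chr11:90223000-90223299 (minus strand) for *CHORDC1*, chr14:102086995-102087294 (minus) for *HSP90AA1*, chr11:123062087-123062386 (minus) for *HSPA8*, chr2:197499791-197500090 (minus) for *HSPD1*, chr7:103344718-103345017 (minus) for *DNAJC2* and chr7:76302423-76302722 (plus) for *HSPB1*.
CHORDC1: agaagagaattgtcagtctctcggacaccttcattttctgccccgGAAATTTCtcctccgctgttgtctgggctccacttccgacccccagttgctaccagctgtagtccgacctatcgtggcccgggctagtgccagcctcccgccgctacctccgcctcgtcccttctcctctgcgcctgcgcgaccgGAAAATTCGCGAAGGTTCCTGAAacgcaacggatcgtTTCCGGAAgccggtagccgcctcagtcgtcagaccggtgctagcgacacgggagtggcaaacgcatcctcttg
HSP90AA1: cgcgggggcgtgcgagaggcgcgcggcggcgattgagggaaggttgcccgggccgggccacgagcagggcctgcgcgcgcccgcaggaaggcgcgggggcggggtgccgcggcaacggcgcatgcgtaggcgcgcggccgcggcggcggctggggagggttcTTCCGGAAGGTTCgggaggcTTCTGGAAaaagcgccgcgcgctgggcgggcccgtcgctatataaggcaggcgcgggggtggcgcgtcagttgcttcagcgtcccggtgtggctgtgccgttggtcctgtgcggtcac
HSPA8: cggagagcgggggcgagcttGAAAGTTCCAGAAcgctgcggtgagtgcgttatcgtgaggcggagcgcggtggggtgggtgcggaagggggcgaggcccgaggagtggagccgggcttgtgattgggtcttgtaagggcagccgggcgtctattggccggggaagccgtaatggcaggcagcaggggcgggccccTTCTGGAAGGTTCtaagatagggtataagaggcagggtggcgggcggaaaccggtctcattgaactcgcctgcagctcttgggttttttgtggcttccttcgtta
HSPD1: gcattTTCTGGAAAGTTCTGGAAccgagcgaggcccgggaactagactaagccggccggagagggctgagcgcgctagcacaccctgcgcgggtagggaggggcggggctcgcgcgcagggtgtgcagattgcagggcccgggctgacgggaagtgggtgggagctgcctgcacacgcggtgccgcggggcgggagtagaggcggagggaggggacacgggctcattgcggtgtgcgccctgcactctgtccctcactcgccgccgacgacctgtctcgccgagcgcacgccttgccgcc
DNAJC2: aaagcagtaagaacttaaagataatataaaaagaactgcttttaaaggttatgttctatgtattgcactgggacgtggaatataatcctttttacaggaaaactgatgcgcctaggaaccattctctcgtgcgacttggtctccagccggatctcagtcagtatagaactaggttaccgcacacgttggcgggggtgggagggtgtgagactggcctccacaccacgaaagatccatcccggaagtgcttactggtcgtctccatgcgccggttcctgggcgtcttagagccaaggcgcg
HSPB1: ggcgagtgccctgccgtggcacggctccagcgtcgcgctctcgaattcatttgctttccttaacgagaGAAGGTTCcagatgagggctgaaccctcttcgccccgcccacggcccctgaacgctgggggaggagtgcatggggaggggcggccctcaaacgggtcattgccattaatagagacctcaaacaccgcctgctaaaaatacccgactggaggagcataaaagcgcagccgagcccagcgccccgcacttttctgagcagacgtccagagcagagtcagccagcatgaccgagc
In *CHORDC1* the 3-unit matches overlapped in 1 run, beginning 60, 55 and 50 bases before the start. *HSP90AA1* had 1 such match, 88 bases before the start, and *HSPA8* had 1 at 230 and 1 at 55 bases. Those of *HSPD1* began 245 and 240 bases before its start, past the annotated start of *HSPE1* (chromosome 2, 197499994 to 197503457), which is transcribed in the opposite direction. The windows of *CHORDC1*, *HSP90AA1*, *HSPA8* and *HSPD1* lie inside the annotated spans, which include transcripts with starts farther away.

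Per kilobase of annotated exon, transcripts of *HSP90AB1*, the constitutive cytosolic HSP90, stood highest of the set in all 5 groups, with 259 CPM per kb in NT, 941 in KSRi and 1534 in DMSO. *HSPA8*, the constitutive cytosolic HSP70, was second in KSRi and DMSO (532 and 800.2 CPM per kb) and stood below *CCT7* (109) and *HSPD1* (103) in NT, where it had 88.7 CPM per kb. The lengths join the exons of all annotated transcripts of a gene, so this order depends on the annotation. Without division by length *HSPA8* averaged 429.9 CPM in NT, *CCT7* 390.9 and *HSPD1* 438.3. The stress-inducible genes *HSPA1B* (2.24, 5.86 and 6.43 CPM per kb in NT, KSRi and DMSO) and *HSPA6* (1.40, 0.353 and 0.415 CPM per kb) were among the 5 lowest in these groups.

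The comparison of KSRi with DMSO asked whether the inhibitor changed chaperone transcripts. Most of them fell: 30 of the 39 tested members were lower and 1 was higher (edgeR quasi-likelihood test, adjusted p under 0.05 over all 18963 tested genes), against 18.7% of all genes lower, 22% higher and 40.7% changed either way. The median log2 change was −0.51 for the members and 0.024 for all tested genes. Libraries of the KSRi and DMSO groups did not overlap for 33 of 39 members, against 46.9% of all genes (25% higher, 21.9% lower). Summed over the 40 genes, transcripts made up 1.79% ± 0.0862 of counts in KSRi and 2.69% ± 0.0749 in DMSO (SD, n = 3 each), so KSRi libraries held 66.4% of the DMSO level. Since RNA was measured in bulk and relative to the total, less chaperone RNA per cell and fewer cells with high levels cannot be told apart.

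**Figure D1:**
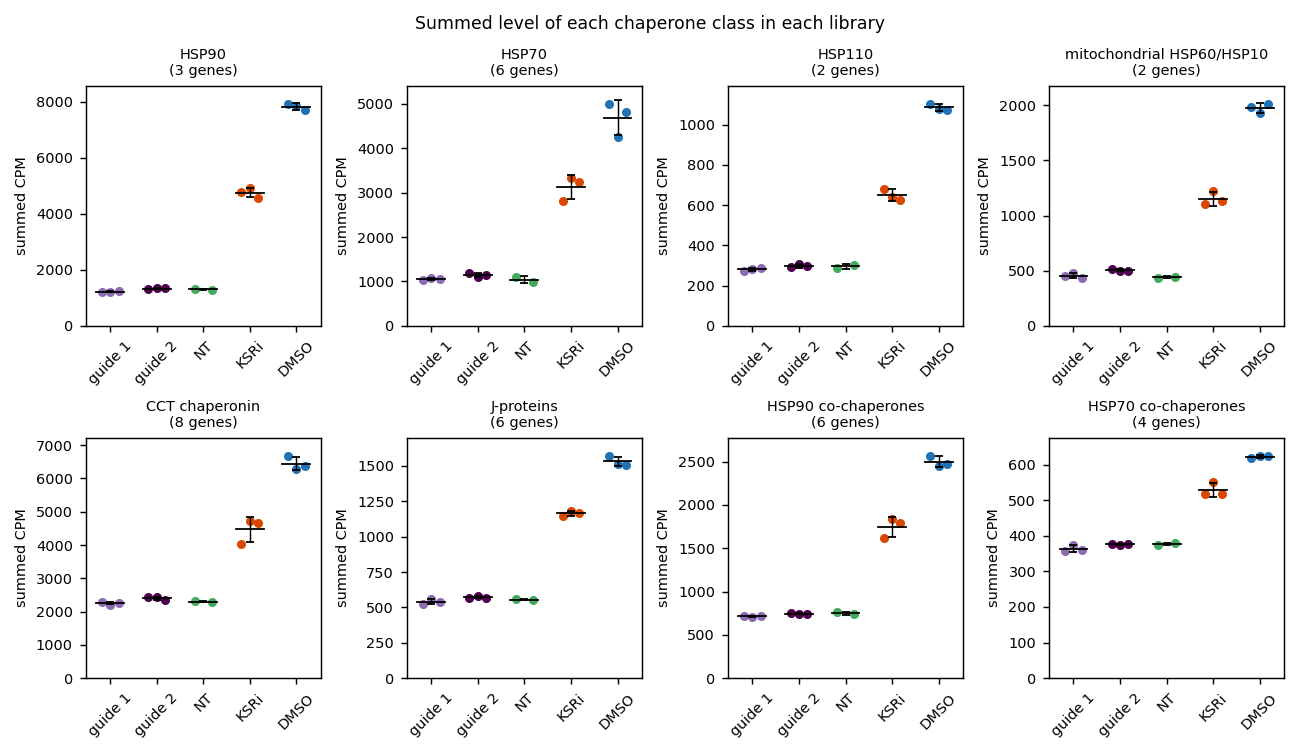
Summed level in CPM (vertical axes, from 0) of 8 chaperone classes in each library, with points for libraries, lines for means and bars for SD, for guide 1, guide 2, NT, KSRi and DMSO. In every class shown the KSRi libraries lie below the DMSO libraries, and the guide 1, guide 2 and NT libraries lie together below both; the HSP90 class averaged 1216, 1335, 1302, 4761 and 7828 CPM in these 5 groups.

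All 3 genes of the HSP90 family fell. *HSP90AB1* had 2447, 3067 and 2901 CPM in KSRi libraries, against 4558, 4549 and 4604 CPM in DMSO libraries (log2 change −0.70, SE 0.084, edgeR adjusted p = 6.57e-06). *HSP90AA1*, the stress-responsive cytosolic form, had 2179, 1615 and 1447 CPM in KSRi, against 3116, 3039 and 2844 CPM in DMSO (log2 change −0.78, SE 0.12, edgeR adjusted p = 5.44e-05). For both genes every KSRi library was below every DMSO library, but their order within KSRi was opposite, replicate 1 being the lowest for *HSP90AB1* and the highest for *HSP90AA1*. *TRAP1*, the mitochondrial HSP90, had 169, 228 and 228 CPM in KSRi, against 267, 248 and 259 CPM in DMSO (log2 change −0.31, SE 0.12, edgeR adjusted p = 0.0426), and without KSRi replicate 1 its log2 change was −0.18 (edgeR adjusted p = 0.138). The 3 genes together averaged 4761 ± 170.1 CPM in KSRi and 7828 ± 117 CPM in DMSO (SD, n = 3 each), 60.8% of the DMSO level.

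Among HSP90 co-chaperones 5 of 6 fell. *CHORDC1*, which binds HSP90 through its CHORD domains, had 109, 84.7 and 70.8 CPM in KSRi, against 212, 220.3 and 202 CPM in DMSO, a 2.39-fold fall (log2 change −1.26, SE 0.11, edgeR adjusted p = 2.83e-07). The highest KSRi library lay well under the lowest DMSO library. *PTGES3* (p23), which stabilises the closed state of HSP90, had 521, 581 and 543 CPM in KSRi, against 775, 776 and 791 CPM in DMSO (log2 change −0.51, SE 0.062, edgeR adjusted p = 7.88e-06). *STIP1* (HOP), the bridge that passes clients from HSP70 to HSP90, had 464, 520.1 and 511 CPM in KSRi, against 749, 696 and 671 CPM in DMSO (log2 change −0.50, SE 0.068, edgeR adjusted p = 2.18e-05). Groups did not overlap for either gene. The immunophilin *FKBP4* fell by 0.58 on the log2 scale. *AHSA1*, which stimulates the ATPase of HSP90, fell by 0.30, and without KSRi replicate 1 its log2 change was −0.17. *CDC37*, the adaptor that brings kinases to HSP90, had 128, 149 and 171 CPM in KSRi and 169, 148 and 155 CPM in DMSO, overlapping groups with a log2 change of −0.074 (95% interval −0.30 to 0.16) that did not pass the test.

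Among the tested HSP70 genes the 3 housekeeping members fell, and the inducible *HSPA1B* and *HSPA6* did not pass the test. Apart from the ratio of *HSPA8* given below, whether the changes of these genes differ was not tested. *HSPA8* had 2266, 2798 and 2680 CPM in KSRi, against 4205, 3443 and 3994 CPM in DMSO (log2 change −0.59, SE 0.10, edgeR adjusted p = 0.000263). *HSPA9* (mortalin), the HSP70 of the mitochondrial matrix, had 500.0, 478 and 518 CPM in KSRi, against 719.9, 734 and 733 CPM in DMSO (log2 change −0.55, SE 0.061, edgeR adjusted p = 3.02e-06). *HSPA14*, an HSP70 that works at the ribosome, had 40.5, 37.6 and 32.3 CPM in KSRi, against 66.0, 66.4 and 63.0 CPM in DMSO (log2 change −0.82, SE 0.088, edgeR adjusted p = 1.91e-06). In these 3 genes every KSRi library was below every DMSO library. The annotation holds another coding gene that overlaps *HSPA14* on the same strand and CDNF on the opposite one, so reads may be shared with these rows.

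The inducible HSP70 genes had few reads. *HSPA1B* had 11.6, 14.7 and 18.1 CPM in KSRi and 16.2, 14.6 and 17.9 CPM in DMSO, overlapping groups with a log2 change of −0.15 (95% interval −0.44 to 0.13). *HSPA1A*, its near-identical neighbour on chromosome 6, had 0.0671, 0.126 and 0.161 CPM in KSRi and 0.0838, 0.0661 and 0.207 CPM in DMSO, and the division of reads between the pair is uncertain. *HSPA6* had 0.671, 1.03 and 0.806 CPM in KSRi and 0.963, 1.06 and 0.932 CPM in DMSO, and its log2 change of −0.20 had an interval of −0.66 to 0.27. The log2 ratio of *HSPA8* counts to the sum of *HSPA1A* and *HSPA1B* was 7.45 ± 0.23 in KSRi and 7.89 ± 0.12 in DMSO (SD, n = 3 each), a difference of −0.44 with an exact two-sided permutation p of 0.1, the smallest that 3 against 3 libraries can give.

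**Figure D2:**
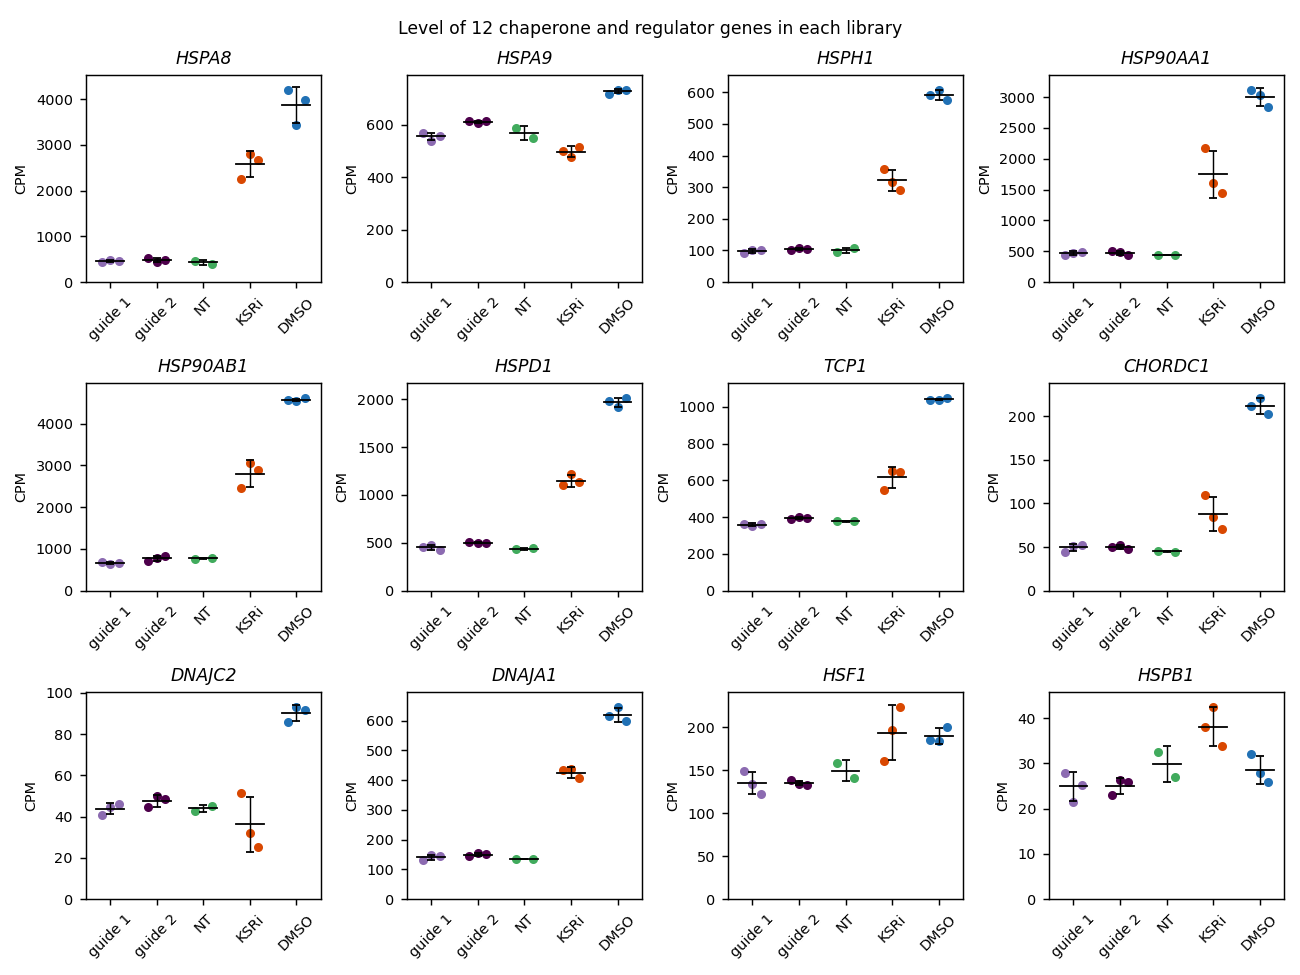
Level in CPM (vertical axes, from 0) of 12 genes in each library of guide 1, guide 2, NT, KSRi and DMSO, with points for libraries, lines for means and bars for SD. KSRi libraries lie below DMSO libraries for *HSPA8*, *HSPA9*, *HSPH1*, *HSP90AA1*, *HSP90AB1*, *HSPD1*, *TCP1*, *CHORDC1*, *DNAJC2* and *DNAJA1*, overlap with them for *HSF1* and lie above them for *HSPB1*.

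Both HSP110 genes, nucleotide exchange factors of HSP70, fell. *HSPH1* had 358, 317 and 290.0 CPM in KSRi, against 592, 607 and 576 CPM in DMSO (log2 change −0.88, SE 0.079, edgeR adjusted p = 3.03e-07). *HSPA4* had 323, 324 and 336 CPM in KSRi, against 512, 471 and 498 CPM in DMSO (log2 change −0.59, SE 0.059, edgeR adjusted p = 8.41e-07). The groups did not overlap for either gene. Of the other HSP70 co-chaperones, *BAG2*, which also inhibits the ubiquitin ligase CHIP, had 86.7, 85.9 and 76.6 CPM in KSRi, against 123, 120.5 and 120.1 CPM in DMSO (log2 change −0.54, SE 0.067, edgeR adjusted p = 8.21e-06). *GRPEL1*, the exchange factor of mitochondrial *HSPA9*, had 55.1, 68.7 and 69.1 CPM in KSRi, against 90.9, 90.9 and 92.6 CPM in DMSO (log2 change −0.51, SE 0.081, edgeR adjusted p = 0.000110). Neither gene had overlapping groups. *ST13* (HIP), which slows nucleotide release from HSP70, had 328, 346 and 326 CPM in KSRi and 358, 365 and 364 CPM in DMSO, and its log2 change of −0.12 did not pass (edgeR adjusted p = 0.110), although the groups did not overlap. *BAG3*, a stress-inducible exchange factor, had a log2 change of 0.045 (95% interval −0.12 to 0.21).

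J-proteins fell in 5 of 6 cases. *DNAJC2*, which works at the ribosome with *HSPA14*, had 51.3, 32.1 and 25.5 CPM in KSRi, against 86.0, 93.2 and 91.7 CPM in DMSO, a 2.47-fold fall (log2 change −1.31, SE 0.16, edgeR adjusted p = 8.38e-06). Its KSRi libraries spread 2.01-fold, the widest range of the 30 members that fell, and still lay below all DMSO libraries. *DNAJA1*, a major cytosolic partner of *HSPA8*, had 432, 438 and 406 CPM in KSRi, against 614, 646 and 598 CPM in DMSO (log2 change −0.54, SE 0.065, edgeR adjusted p = 6.14e-06). *DNAJA2*, its paralogue, had 90.0, 102 and 102 CPM in KSRi, against 129, 127 and 126 CPM in DMSO (log2 change −0.38, SE 0.062, edgeR adjusted p = 0.000137). Neither of these overlapped between groups. *DNAJC7*, which binds both HSP70 and HSP90, changed by −0.38 and *DNAJB6*, which suppresses aggregation, by −0.20 on the log2 scale. *DNAJB1*, the best known heat-inducible J-protein, had 266, 306 and 324 CPM in KSRi and 341, 306 and 314 CPM in DMSO and did not pass the test (log2 change −0.10, 95% interval −0.26 to 0.055). *DNAJC2* overlaps *PMPCB* and *PSMC2*, and *DNAJB1* overlaps *TECR*, on the opposite strand. Whether counting used the strand is unknown, so reads of such neighbours may be shared.

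The chaperonins fell throughout. All 8 CCT genes were lower in KSRi, with log2 changes between −0.76 and −0.33 (mean −0.53, SD 0.14 over the 8 genes), and their summed level was 4469 ± 369 CPM in KSRi and 6447 ± 205 CPM in DMSO (SD, n = 3 each). *TCP1* (CCT1) had 549.8, 654 and 645 CPM in KSRi, against 1040, 1037 and 1046 CPM in DMSO (log2 change −0.76, SE 0.07, edgeR adjusted p = 3.72e-07). *CCT6A* had 467, 483 and 478 CPM in KSRi, against 775, 748 and 738 CPM in DMSO (log2 change −0.66, SE 0.073, edgeR adjusted p = 2.62e-06). *CCT5* had 482, 558 and 481 CPM in KSRi, against 817, 770.3 and 744 CPM in DMSO (log2 change −0.62, SE 0.08, edgeR adjusted p = 1.44e-05). Groups did not overlap in any of these 3 genes. *CCT3* changed by −0.52, *CCT2* by −0.51, *CCT8* by −0.47, *CCT4* by −0.39 and *CCT7* by −0.33 on the log2 scale, and *CCT7* by −0.21 without KSRi replicate 1. *TCP1* overlaps *ACAT2* on the opposite strand.

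In the mitochondrial chaperonin, *HSPD1* (HSP60) had 1100, 1221 and 1132 CPM in KSRi, against 1979, 1917 and 2009 CPM in DMSO (log2 change −0.77, SE 0.068, edgeR adjusted p = 2.24e-07), the lowest p of the set in this comparison. *HSPE1* (HSP10) had 3.56, 3.60 and 3.12 CPM in KSRi, against 6.87, 8.40 and 7.07 CPM in DMSO (log2 change −1.10, SE 0.17, edgeR adjusted p = 8.27e-05). Every KSRi library was below every DMSO library for both. *HSPE1* counts are far fewer than those of its partner, the HSPE1-MOB4 readthrough row that shares its exons is listed at 0 in all libraries, and the 2 genes overlap in the annotation, so its level is uncertain. The log2 ratio of *HSPE1* to *HSPD1* was −8.39 ± 0.11 in KSRi and −8.05 ± 0.19 in DMSO (SD, n = 3 each), a difference of −0.34 with an exact two-sided permutation p of 0.1, again the smallest possible. The 80 pseudogene rows of the set's families that held counts summed to 9.04 ± 0.465 CPM in KSRi and 14.5 ± 0.566 CPM in DMSO (SD, n = 3 each).

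One member rose. *HSPB1* (HSP27), a small heat shock protein that holds unfolded proteins without ATP, had 38.1, 42.5 and 33.8 CPM in KSRi, against 32.0, 27.8 and 26.0 CPM in DMSO (log2 change 0.42, SE 0.11, edgeR adjusted p = 0.00702), and every KSRi library was above every DMSO library. The regulators themselves did not pass the test. *HSF1* had 161, 197 and 224 CPM in KSRi and 186, 184 and 201 CPM in DMSO, overlapping groups with a log2 change of 0.027 (95% interval −0.18 to 0.24). *HSF2*, which can form mixed trimers with *HSF1*, had 38.2, 38.3 and 40.2 CPM in KSRi and 42.6, 47.2 and 42.8 CPM in DMSO. These groups did not overlap, and the log2 change of −0.18 stood just outside the threshold (edgeR adjusted p = 0.0524).

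Libraries of the KSRi group differed among themselves. Chi-square per degree of freedom between pairs was 17.2 to 49.9 in KSRi and 5.83 to 7.78 in DMSO, and mitochondrially encoded transcripts took 1.12% to 2.51% of counts in KSRi and 1.27% to 1.45% in DMSO. Among the 30 members that fell, KSRi replicate 1 was the lowest of its group in 18 and the highest in 7. Without KSRi replicate 1, 29 members were lower and 1 was higher. Of all tested genes 4016 were then lower and 4912 higher, against 3537 and 4175 with all libraries.

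**Figure D3:**
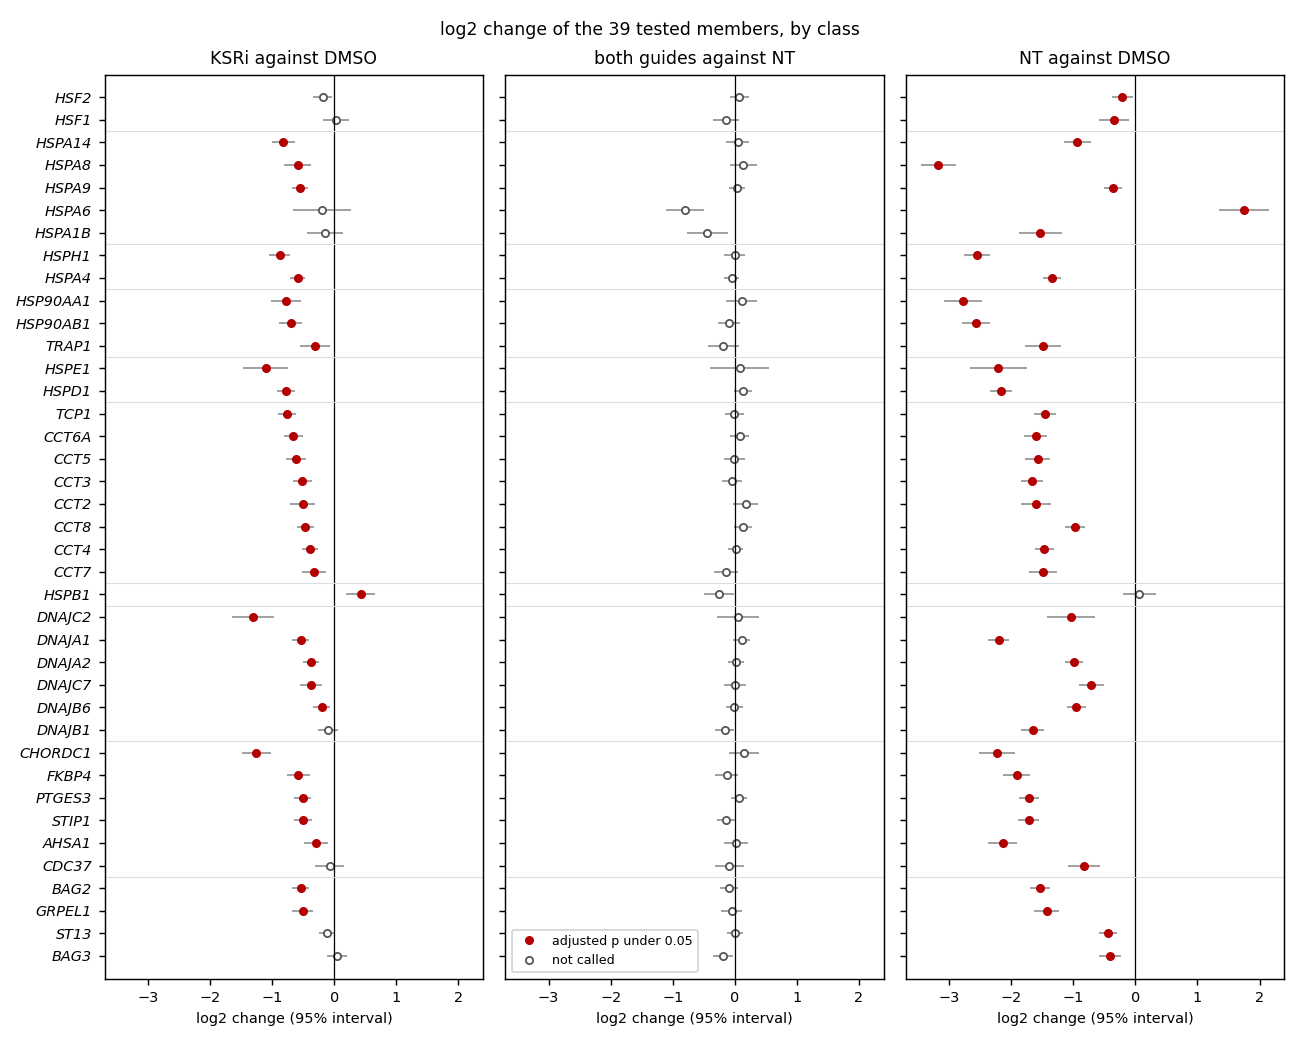
Log2 change (horizontal axis) with its 95% interval for the 39 tested members, by class from top to bottom, for KSRi against DMSO (left), both guides against NT (middle) and NT against DMSO (right). Filled points have an adjusted p under 0.05: 31 members in the left panel, 0 in the middle panel and 38 in the right panel.

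Members with a 3-unit heat shock element in their window were lower in KSRi in 7 of 8 cases (median log2 change −0.65), *HSPA6* being the exception. Members whose window held none were lower in 19 of 25 tested cases (median −0.47), against 18.7% of all tested genes. In NT against DMSO 7 of 8 members with the element and 24 of 25 without it were lower, against 31.2% of all tested genes. The medians were −2.22 and −1.48, and *HSPA6*, the member higher in NT, carries the element. The ranges overlapped in both comparisons, and no test was made of the difference. In KSRi they ran from −1.26 to −0.20 with the element and −1.31 to 0.42 without it. In NT they ran from −3.17 to 1.75 and from −2.555 to 0.063.

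The comparison of the guides with NT asked whether chaperones changed where *KSR2* transcript was lost. No change was detectable: 0 of 39 members passed with both guides together, with guide 1 or with guide 2, against 0.0158%, 0.00527% and 0.0105% of all tested genes (all of them lower, 0% higher). At an unadjusted edgeR p under 0.05 there were 5 members with both guides, 6 with guide 1 and 5 with guide 2, against 4.16%, 4.64% and 3.6% of all genes. With 1 library left out at a time these counts ran from 1 to 10, 1 to 8 and 2 to 7, each lowest without NT replicate 1, the first highest without KSRi replicate 1. The share of all genes at that unadjusted p was not counted with a library left out, so these ranges cannot be set against it. DESeq2 and limma-voom called 0 members. Summed over the 40 genes, levels were 7084, 7088 and 7083 CPM with guide 1 and 7626, 7574 and 7519 CPM with guide 2, against 7364 and 7193 CPM in NT. Guide 1 libraries lay below both NT libraries and guide 2 libraries above both. With both guides in 1 contrast, 95% intervals stayed between −0.5 and 0.5 on the log2 scale for 36 of 39 members, and their median half-width was 0.17.

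Log2 changes with both guides ran from −0.25 for *HSPB1* to 0.17 for *CCT2*, apart from *HSPA6* and *HSPA1B*. *HSPA8* had 431, 494 and 459.7 CPM with guide 1 and 526, 440.1 and 488 CPM with guide 2, against 464 and 396 CPM in NT (log2 change with both guides 0.14, 95% interval −0.081 to 0.36). *HSP90AB1* had 696, 645 and 662 CPM with guide 1 and 717, 786 and 828 CPM with guide 2, against 765 and 778 CPM in NT (−0.10, −0.28 to 0.077). *CHORDC1* had 44.8, 51.7 and 51.9 CPM with guide 1 and 50.1, 52.1 and 47.2 CPM with guide 2, against 45.4 and 44.4 CPM in NT (0.14, −0.10 to 0.39). Guide 1 alone lay below NT for *HSP90AB1* and guide 2 alone above NT for *CHORDC1*, and over both guides together all 3 genes overlapped with NT. In all, libraries of the guides did not overlap with NT for 8 of 39 members, against 9.56% of all genes (4.41% higher, 5.15% lower). *CCT2* and *CCT8* lay above NT, and *HSPA1B*, *HSPA6*, *CCT7*, *DNAJB1*, *STIP1* and *BAG3* lay below it. The 8 CCT genes had a mean log2 change of 0.024 (SD 0.10) with both guides. Between the guides, 0 of 39 members differed, against 0.00527% of all genes, with 4 at an unadjusted edgeR p under 0.05, against 3.24% of all genes. That count was 1 without guide 1 replicate 3 or guide 2 replicate 2 and 7 without KSRi replicate 1. For these runs too, the share of all genes was not counted.

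*HSPA6*, a strictly inducible HSP70, came nearest to a call with the guides. It had 1.66, 2.02 and 1.69 CPM with guide 1 and 2.31, 2.09 and 1.65 CPM with guide 2, against 3.37 and 3.25 CPM in NT, and every guide library was below both NT libraries. The log2 change with both guides was −0.81 (SE 0.15, edgeR adjusted p = 0.106). Without the low-count filter the edgeR adjusted p was 0.00143 for both guides, 0.00321 for guide 1 and 0.0594 for guide 2. In that setting 41 genes of all tested passed with both guides (18 higher, 23 lower) and 35 with guide 1 (13 higher, 22 lower), against 3 and 1 with the filter. *HSPA1B*, also inducible, had 4.36, 3.70 and 3.91 CPM with guide 1 and 4.96, 4.22 and 3.75 CPM with guide 2, against 5.97 and 5.32 CPM in NT, a log2 change of −0.44 that did not pass (edgeR adjusted p = 0.989).

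A test of the difference between the inhibitor effect (KSRi minus DMSO) and the guide effect (both guides minus NT) put 26 of 39 members below and 1 above, against 12.1% of all genes below, 16.6% above and 28.6% either way. These shares stand for 2292 genes below and 3139 above, and without NT replicate 1 the counts were 1260 and 2106. Its median over the members was −0.46 on the log2 scale. The difference was −1.40 for *CHORDC1* (SE 0.16, edgeR adjusted p = 1.22e-05), −1.36 for *DNAJC2*, −1.18 for *HSPE1* and −0.90 for *HSPD1*. *HSPB1*, the member above, had a difference of 0.68 (SE 0.16, edgeR adjusted p = 0.00482), and without NT replicate 1 it was 0.54 (edgeR adjusted p = 0.0527). The 12 members that did not pass were *HSF1* (0.17), *HSF2* (−0.26), *HSPA1B* (0.29), *HSPA6* (0.61), *TRAP1* (−0.12), *CCT7* (−0.19), *DNAJB1* (0.062), *DNAJB6* (−0.19), *AHSA1* (−0.32), *CDC37* (0.013), *BAG3* (0.24) and *ST13* (−0.13).

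The 2 control groups, NT and DMSO, also differed. In NT 37 of 39 members were lower and 1 was higher than in DMSO (edgeR adjusted p under 0.05), against 31.2% of all genes lower, 34.6% higher and 65.8% either way. The median log2 change was −1.49 for the members and 0.041 for all tested genes. Of all calls 52.6% were higher in NT, and 66.4% under upper-quartile scaling, where these medians were −1.27 and 0.26. Libraries did not overlap for 38 of 39 members, against 79.3% of all genes (41.5% higher, 37.8% lower). Summed over the 40 genes, NT held 7278 ± 121 CPM (n = 2) and DMSO 26940 ± 748 CPM (n = 3), so NT had 27.0% of the DMSO level. The groups differ in guide delivery, in solvent and possibly in culture and handling, which cannot be told apart. Mitochondrially encoded transcripts took 2.50% and 1.85% of counts in NT libraries and 1.27% to 1.45% in DMSO libraries, without overlap, and their part in the result was not tested. *CD79A*, a B cell marker, was at 57.3 CPM in NT and 22.3 CPM in DMSO, while the other 11 of the 12 markers of other cell types summed to 0.434 to 0.899 CPM in NT libraries and 0.595 to 0.796 CPM in DMSO libraries; the part of this in the result was not tested.

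*HSPA8* had the largest fall, with 464 and 396 CPM in NT, against 4205, 3443 and 3994 CPM in DMSO (log2 change −3.17, SE 0.13, edgeR adjusted p = 5.55e-12), 11.1% of the DMSO level. *HSP90AA1* had 439 and 438 CPM in NT, against 3116, 3039 and 2844 CPM in DMSO (log2 change −2.78, SE 0.14, edgeR adjusted p = 6.19e-11). *HSP90AB1* had 765 and 778 CPM in NT, against 4558, 4549 and 4604 CPM in DMSO (log2 change −2.57, SE 0.10, edgeR adjusted p = 5.14e-12). The HSP90 class as a whole stood at 16.6% of its DMSO level. The 3 lowest p-values belonged to *DNAJA1*, *HSPD1* and *HSPH1*. *DNAJA1* had 135 and 134 CPM in NT, against 614, 646 and 598 CPM in DMSO (log2 change −2.20, SE 0.079, edgeR adjusted p = 1.30e-12). *HSPD1* had 432 and 444 CPM in NT, against 1979, 1917 and 2009 CPM in DMSO (log2 change −2.17, SE 0.082, edgeR adjusted p = 2.28e-12). *HSPH1* had 94.5 and 107 CPM in NT, against 592, 607 and 576 CPM in DMSO (log2 change −2.56, SE 0.10, edgeR adjusted p = 2.62e-12). In none of these 6 genes did the groups overlap.

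CCT genes fell together in NT too, with a mean log2 change of −1.48 (SD 0.22 over the 8 genes), from −1.67 for *CCT3* to −0.97 for *CCT8*. Co-chaperones of HSP90 fell by 2.23 (*CHORDC1*), 2.14 (*AHSA1*), 1.91 (*FKBP4*), 1.72 (*STIP1*), 1.71 (*PTGES3*) and 0.83 (*CDC37*) on the log2 scale. Among the J-proteins, *DNAJB1* fell by 1.66, *DNAJC2* by 1.03, *DNAJA2* by 0.99, *DNAJB6* by 0.95 and *DNAJC7* by 0.72. *HSPE1* fell by 2.21, *BAG2* by 1.54, *HSPA1B* by 1.53, *TRAP1* by 1.48, *GRPEL1* by 1.43, *HSPA4* by 1.34 and *HSPA14* by 0.93. Smaller falls were those of *ST13* (−0.45), *BAG3* (−0.41), *HSPA9* (−0.36), *HSF1* (−0.35) and *HSF2* (−0.21). Under upper-quartile scaling *HSPA9*, *HSF1* and *HSF2* no longer passed, and the value of *HSF2* became 0.0072. *HSF1* also lost its call with a filter of 5 CPM in 3 libraries and without NT replicate 2. *HSF2* lost it with that filter (log2 change −0.070), with no filter, and without NT replicate 1 or DMSO replicate 2.

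*HSPA6* was the exception, with 3.37 and 3.25 CPM in NT, against 0.963, 1.06 and 0.932 CPM in DMSO (log2 change 1.75, SE 0.19, edgeR adjusted p = 4.17e-07). *HSPB1* was not called, with 32.6 and 27.1 CPM in NT and 32.0, 27.8 and 26.0 CPM in DMSO (log2 change 0.063, 95% interval −0.21 to 0.33). *HSPA1A* had 0.145 and 0.238 CPM in NT and 0.0838, 0.0661 and 0.207 CPM in DMSO, and was not tested.

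The inhibitor comparison and the control comparison share the DMSO libraries, so their values are set side by side without a measure of likeness. *HSPA8* changed by −0.59 with KSRi and by −3.17 with NT, *HSP90AA1* by −0.78 and −2.78, *HSPD1* by −0.77 and −2.17, and *TCP1* by −0.76 and −1.46 on the log2 scale. *DNAJC2* (−1.31 and −1.03), *HSPA9* (−0.55 and −0.36) and *HSPB1* (0.42 and 0.063) did not have the larger size in NT. *DNAJB1* (−0.10 and −1.66) and *HSPA1B* (−0.15 and −1.53) passed the test with NT and did not pass it with KSRi. Whether the 2 changes of a gene differ was not tested.

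Other protein quality control genes were counted for context, and guides against NT had 0 calls in each of these lists. Shares of all tested genes to read these counts against are 18.7% lower and 22% higher in KSRi, and 31.2% lower and 34.6% higher in NT. Of 27 other co-chaperones of HSP90 and HSP70, 12 were lower and 4 higher in KSRi than in DMSO (median log2 change −0.14), and 20 lower and 2 higher in NT than in DMSO (median −0.64). They included *NUDCD1* (−0.69 in KSRi against DMSO) and *SUGT1* (−0.55), both HSP90 partners, and *SIL1* (0.74), an exchange factor of the ER counted in the ER list too. Of 28 other J-proteins, 8 were lower and 3 higher in KSRi (median −0.057) and 14 lower and 5 higher in NT (median −0.21), among them *DNAJC11* (−0.51 in KSRi) and *DNAJA3* (−0.32) of mitochondria and *DNAJC1* (0.49) of the ER. Of 9 ribosome-associated chaperones and factors, 8 were lower in KSRi (median −0.25) and 3 lower and 1 higher in NT (median −0.26), with *NAA15* (−0.82) and *NAA10* (−0.76) of the N-terminal acetyltransferase and *NEMF* (−0.73) of ribosome quality control having the lowest p. Of 15 tested prefoldin and CCT cofactor genes, 5 were lower and 3 higher in KSRi (median −0.17) and 8 lower and 2 higher in NT (median −0.48), including the tubulin cofactors *TBCD* (−0.37) and *TBCC* (0.39) and the prefoldin subunit *PFDN1* (−0.26).

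In mitochondria, 8 of 21 import motor and protease genes were lower and 0 higher in KSRi (median −0.16), and 18 lower and 0 higher in NT (median −0.61), with *PAM16* (−1.07 in KSRi), an import motor subunit, *TOMM20* (−0.42), an import receptor, and *CLPP* (−0.35), a matrix protease. *DNAJA3* is in this list as well. Of 31 proteasome genes, 10 were lower and 0 higher in KSRi (median −0.14) and 30 lower and 0 higher in NT (median −0.95), including *PSMA6* (−0.92 in KSRi), *PSMA5* (−0.50) and *PSMD12* (−0.50). Of 21 genes in the list of ER chaperones and their regulators, 6 were lower and 6 higher in KSRi (median −0.029), and 20 were higher and 0 lower in NT (median 1.24). *HSPA5* (BiP), the HSP70 of the ER, changed by −0.65 in KSRi and 1.31 in NT, *DNAJB9* by 0.96 and 1.51, and the transcription factor *XBP1* by 0.59 and 1.37. Of 18 tested further heat shock genes and *HSF1* targets outside the set, 1 was lower and 3 higher in KSRi (median −0.023) and 9 lower and 4 higher in NT (median −0.31). The 3 higher in KSRi were *DNAJB5* (1.15), *SERPINH1* (0.79), the collagen chaperone, and *HSPB6* (2.39), which was under 1 CPM.

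**Figure D4:**
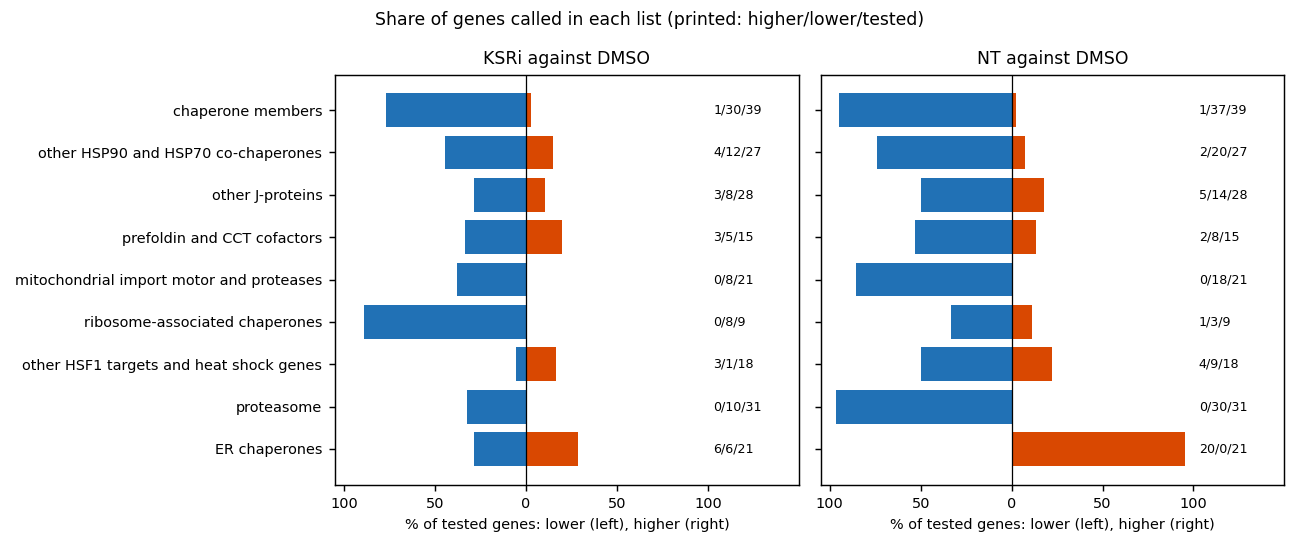
Share of tested genes called lower (left of 0) and higher (right of 0), in percent, in the chaperone set and 8 other lists, for KSRi against DMSO (left panel) and NT against DMSO (right panel). Numbers at the right give genes higher, lower and tested; the chaperone set has 1, 30 and 39 in KSRi and 1, 37 and 39 in NT, and the ER chaperones have 20, 0 and 21 in NT.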

How the data were processed

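Gene-level counts of polyadenylated RNA from 14 Jurkat libraries were analysed. The authors deposited raw counts, 1 whole number per Ensembl gene and library. STAR 2.7.11b, DESeq2 1.42.1 and GRCh38 are named in the submitters' processing notes. How reads were counted, whether by strand and with which annotation, is not stated in those notes or the labels, and this affects genes that overlap or have near-identical copies.

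Symbols were found for 61369 of 61541 identifiers, and positions and exon lengths were taken from a GENCODE annotation of GRCh38. Counts were tested with edgeR 4.0.16 in R 4.3.3, using TMM factors, filterByExpr (18963 genes kept), 1 mean per group over all 14 libraries, quasi-likelihood F tests and Benjamini-Hochberg adjustment across the tested genes (threshold 0.05). CPM values use TMM-scaled library sizes, and intervals are 95% intervals of that fit. The procedure was tested on simulated data. Groups follow the labels. All replicates were kept, since none agreed within sampling noise (5.83 to 49.9 chi-square units per degree of freedom).

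The 40 genes and the other lists were chosen with earlier results of these data known. All members are accounted for. Values per library are given for up to 3 members per class with the lowest p for KSRi against DMSO, for the 3 with the lowest p for NT against DMSO, for *HSPA1A* and *HSPA1B*, and for *HSPA6*, *CDC37* and *DNAJB1*, which were added after their values were seen. From each other list the 3 genes with the lowest p are named. Alternatives were RLE and upper-quartile scaling, DESeq2 1.42.0 and limma-voom (limma 3.58.1), no filter or one of 5 CPM in 3 libraries, only the groups compared, a replicate block, each library left out, an adjusted p under 0.01, a change of at least 1.5-fold, *HSPA1A* and *HSPA1B* summed, and 5 in place of 0.5 counts added in the ratios. Sequences are from RefSeq.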

Additional observations from a re-analysis of the deposited data

Results flagged for a closer look

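The inhibitor effect differed from the guide effect, by the edgeR test of the difference itself, in 27 of 39 tested chaperone genes. Of all tested genes 28.6% differed, 12.1% with the inhibitor effect below the guide effect and 16.6% with it above. Among the chaperone genes the directions were as follows. The inhibitor effect lay below the guide effect in 26 genes, most of all in *CHORDC1* (−1.40 on the log2 scale), and above it in 1 gene, *HSPB1* (0.68). The comparison rests on different controls, DMSO and NT, whose own chaperone levels stand apart.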

How the results depend on the processing

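With a change of at least 1.5-fold required, 13 members were lower and 0 higher in KSRi than in DMSO, and 16 had an inhibitor effect below the guide effect. The share of all genes under this requirement is not given here, so these counts cannot be set against it. Without the low-count filter 1 member, *HSPA6*, was lower with guide 1 and 1, again *HSPA6*, with both guides, where 35 and 41 of all genes passed. With a filter of 5 CPM in 3 libraries it was not tested, and 0 members were higher in NT than in DMSO. Leaving out 1 library at a time gave 28 to 32 members lower and 1 higher in KSRi, 36 to 37 lower and 1 higher in NT, 0 in each guide comparison, and 23 to 27 below and 0 to 3 above in the test of the difference of effects (3 without KSRi replicate 1, where *HSF1* and *HSPA6* joined *HSPB1*, and 0 without NT replicate 1). With a KSRi, DMSO or guide library left out, 2759 to 4016 of all genes were lower in KSRi and 5463 to 6304 in NT. In the difference of effects 1764 to 3245 of all genes were then below. The member ranges also cover the runs without an NT library, which leave 1 library in that group. In those runs the counts of all genes lower in NT, and below in the difference of effects, fell under the ranges given here. Leaving out 1 library moved the ratio difference of *HSPE1* to *HSPD1* between −0.40 and −0.23 and that of *HSPA8* to *HSPA1A* plus *HSPA1B* between −0.51 and −0.31. Upper-quartile scaling moved the NT to DMSO median of all genes from 0.041 to 0.26 and that of the members to −1.27, raised the share of higher calls from 52.6% to 66.4%, and turned *HSF2* to 0.0072 (edgeR adjusted p = 0.943); the cause was not tested. *TRAP1* in KSRi lost its call without any 1 DMSO library, without KSRi replicate 1 and without guide 2 replicate 1, *DNAJB6* without DMSO replicate 1 and *AHSA1* without DMSO replicate 3. *HSF2* passed in KSRi under 6 of the alternatives and *ST13* under 3. *HSPA1A*, *HSPA6* and *HSPE1* had few counts, which limits what their values show, and the reason for the low counts was not tested.

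Deviations of same-numbered libraries from their group means had correlations of −0.39 to 0.23 over 26 pairs, 5 above 0.1. Libraries with different numbers were not compared in this way, so whether the numbers pair samples was not decided. With the replicate number as a block, 29 members were lower and 1 higher in KSRi, *TRAP1* losing its call (edgeR adjusted p = 0.0590), and 37 lower and 1 higher in NT, with 0 in the guide comparisons and 26 below and 1 above in the difference of effects. Of all genes 3285 were then lower and 3932 higher in KSRi, and 5638 lower and 6320 higher in NT. In the difference of effects 1938 of all genes were below and 2795 above.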
